A study of Mus musculus with 8 samples.

Results

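C1q macrophages low in MHC class II were taken here as the host cells of 8 single-cell libraries that carried complement C1q transcripts with few transcripts of antigen presentation and few of microglia. A cell was a member when it had at least 500 detected genes, at most 10% of its unique molecular identifiers (UMIs, each counted as 1 captured transcript) from mitochondrial genes, and less than 0.2% of its UMIs from the tumour's eGFP reporter and Mycl together. It also had at least 3 UMIs of C1qa, C1qb and C1qc in sum, fewer than 10 UMIs of H2-Aa, H2-Ab1, H2-Eb1 and Cd74 in sum, and at most 2 UMIs of P2ry12, Tmem119, Gpr34 and Cx3cr1 in sum. The rule found 198 cells among 36797 cells that passed the gene and mitochondrial limits, of 38460 deposited. Brain replicate 1 held 116 of them and brain replicate 2 held 32. Liver replicates 1, 2 and 3 held 2, 26 and 7, and subcutaneous replicates 1, 2 and 3 held 14, 0 and 1. The cells were thus chosen by their measured UMIs of these genes, so levels of the rule's genes are given as description and support nothing.

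All 8 libraries came from mouse allografts of N2N1G, a mouse small cell lung cancer line carrying eGFP, taken 3 weeks after transplantation. Brain (2 libraries) and subcutaneous (3 libraries) tumours were started by direct injection, while liver tumours (3 libraries) were seeded through the tail vein, so route and site cannot be told apart in any comparison with liver. Living single cells were sorted from dissociated tumours and profiled the same day by droplet 3′ sequencing. A single tumour line was used, no tumour-free tissue was analysed here, and the labels name neither the host strain nor the animal behind each library, so a p-value measures only the spread between these libraries.

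C1q, made mostly by tissue macrophages, starts the classical complement pathway and coats dying cells and synapses for uptake. Most macrophages of a tissue share such clearance genes, while site-specific programmes separate them: microglia of the brain parenchyma, macrophages of the brain's borders and vessels, Kupffer cells of the liver sinusoids, and perivascular macrophages of the skin and connective tissue. MHC class II, which presents peptides to helper T cells, is low in resting microglia and in many resident macrophages and rises with interferon gamma.

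The UMI limits of the rule depend on how deeply a cell was sequenced, and the members were shallow. Their median depth was 1812.5 and 1569 UMIs in brain replicates 1 and 2, 2176.5, 1485.5 and 1616 in liver replicates 1 to 3, and 1885 in subcutaneous replicate 1. C1q cells with at least 10 MHC class II UMIs had medians of 3755 and 3720 in the brain libraries and 5440 in subcutaneous replicate 1, and C1q cells with more than 2 microglial UMIs had 4146 and 3201 in the brain libraries. When every cell was thinned to 1000 UMIs, 24.6% of the microglial class of brain replicate 1 and 11.9% of that of brain replicate 2 met the rule. Of the class high in MHC class II, 20.3%, 18.2% and 7.14% did so in brain replicates 1 and 2 and subcutaneous replicate 1. The microglial limit cut through a continuous range, with 94 members at 1 or 2 microglial UMIs and 53 cells just outside at 3 or 4. The other limits cut through fewer cells: 3 members had 8 or 9 MHC class II UMIs and 1 cell had 10 or 11, while 4 members had 3 or 4 C1q UMIs and 61 cells had 1 or 2.

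One member of brain replicate 1 stood apart from all others. It held 60184 UMIs over 6902 genes, against 7114 UMIs in the next deepest cell of that library, and made up 19.5% of the UMIs of the library's members. It had 476 UMIs of endothelial genes and only 4 of C1q. Cldn5, a tight junction protein of brain endothelium, was at 767 CPM (a gene's UMIs as a share of all UMIs summed over the members of a library, scaled to a common total) in brain replicate 1 with that cell and at 0 without it. The 9 endothelial genes together were at 1566 CPM with it and 32.1 CPM without it. Values of brain replicate 1 that move by over 1.5 times without this cell are given both ways. Many macrophage genes were moderately higher without it, such as Apoe at 14290 in place of 11680 CPM and Ctsd at 11720 in place of 9460 CPM. No member barcode was shared between libraries, and any pair of libraries shared at most 56 barcodes and at most 1.16% of those of the smaller library. Deposited depth was 27140735 to 63049542 UMIs per library over 3742 to 6707 cells. Summed over members, brain replicates 1 and 2 held 309101 and 59276 UMIs, liver replicates 1 to 3 held 4353, 43197 and 18217, and subcutaneous replicates 1 and 3 held 30736 and 1224.

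The C1q macrophages low in MHC class II made up the largest share of host cells in liver replicate 2, unless the rule was applied anew to thinned counts. Among all kept cells they took their largest shares in the brain libraries. They made up 3.44% (95% exact binomial interval 2.85 to 4.11%) of the kept cells of brain replicate 1 and 0.726% (0.497 to 1.02%) of those of brain replicate 2. The liver libraries held 0.0480%, 0.597% and 0.146%, and the subcutaneous libraries 0.317%, 0% and 0.0206%, where the 0 of 6406 cells allows a share of up to 0.0468% (3 cells). Brain averaged 2.08% ± 1.92 (SD, n = 2), liver 0.263% ± 0.293 (n = 3) and subcutaneous tissue 0.112% ± 0.177 (n = 3). Both brain libraries lay above all 6 others, though brain replicate 1 was far above brain replicate 2. An exact permutation test over the 3 sites gave p = 0.0179, which was 0.214 after Benjamini-Hochberg adjustment over the 12 tests of shares. Each pairwise exact test of brain gave p = 0.1, the smallest value that 2 libraries against 3 allow. The difference also fell short of the threshold without either brain library and without liver replicate 2, subcutaneous replicate 2 or subcutaneous replicate 3 (exact permutation p from 0.0714 to 0.157).

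Among host cells, meaning kept cells under the eGFP and Mycl limit, the share was 12.1% and 9.12% in the brain libraries. Liver replicate 2 was higher than both at 15.5%, with 3.51% and 7.78% in liver replicates 1 and 3, and the subcutaneous libraries had 5.13%, 0% (up to 2.31% allowed) and 1.96%. The exact permutation test over sites gave p = 0.168. Tumour transcripts were not equally spread over these host cells. An eGFP UMI was seen in 21.2% and 18.2% of them in brain, and in 75.4%, 56.0% and 64.4% in liver. The subcutaneous libraries had 32.2%, 81.5% and 80.4%. At a tumour limit of 0.1% the brain difference from the mean of the other sites was 1.5 points in place of 4.97. The part of tumour cells or free RNA in this was not tested. With each cell thinned to 2000 UMIs, shallower cells dropped and the rule applied anew, the order changed. Shares were 10.99% and 4.48% in brain, 1.59%, 4.14% and 3.49% in liver, and 2.82%, 0.781% and 1.61% in subcutaneous tissue. The same exact permutation test then gave p = 0.0143, not adjusted for the number of tests. In brain replicates 1 and 2 and liver replicate 2, 83, 13 and 6 cells then met the rule. Only 52, 10 and 6 of the original members there had at least 2000 UMIs. The changed order thus cannot be read as that of the same cells at equal depth. The intervals and limits cover counting error only, and the sort of living cells before capture can set how many host cells enter each library.

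**Figure D1:**
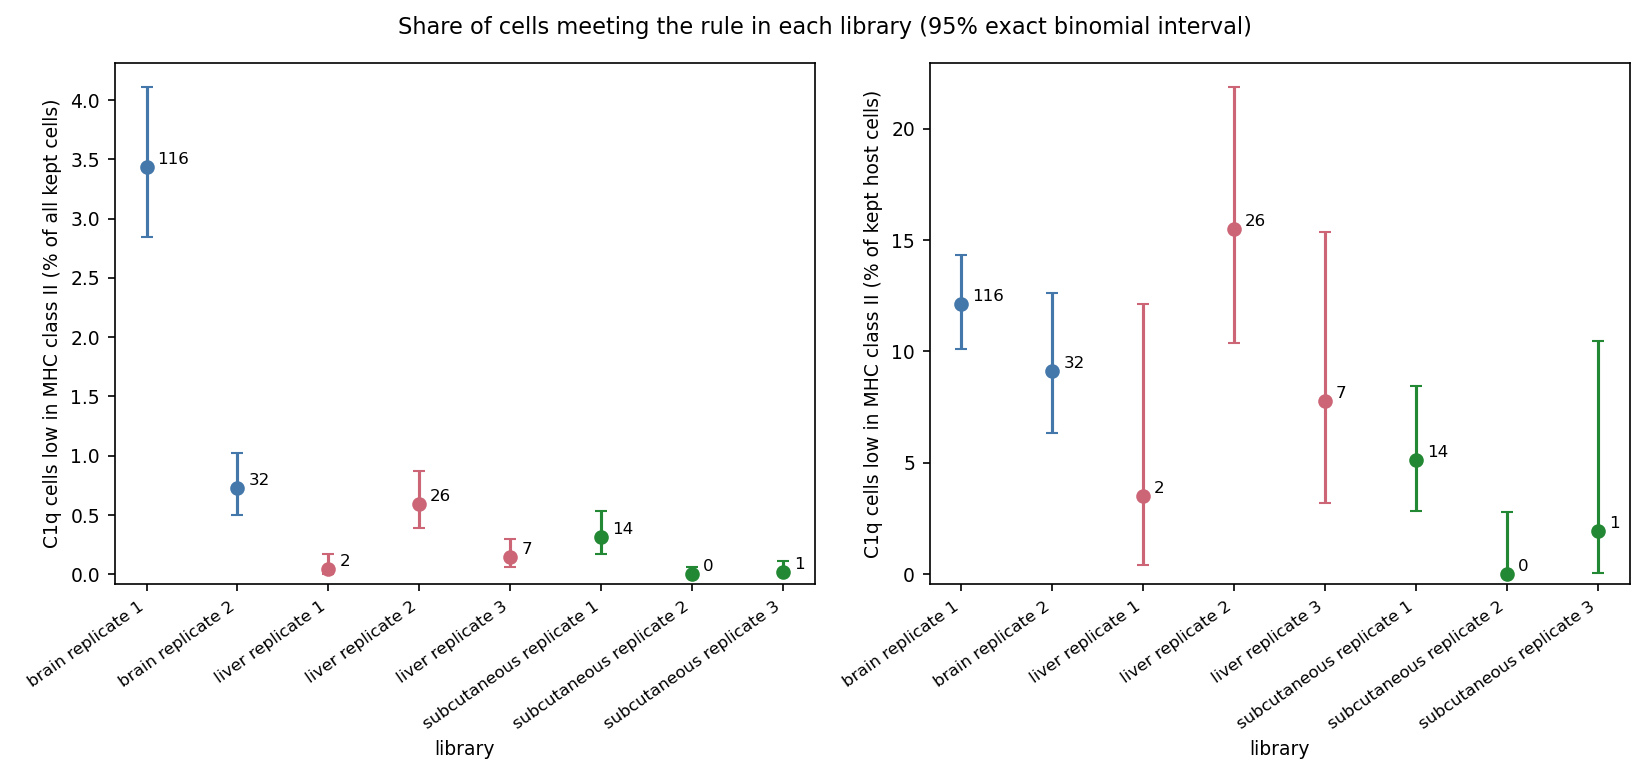
Share of C1q cells low in MHC class II in each library, as % of all kept cells (left) and % of kept host cells (right). Points are libraries with 95% exact binomial intervals and numbers are member cells. The brain libraries (3.44% and 0.726%) are the highest on the left, while liver replicate 2 (15.5%) is the highest on the right. With the rule applied anew at 2000 UMIs per cell, liver replicate 2 was at 4.14%, below both brain libraries, but the cells that met the rule were then not the same.

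MHC class II was low in nearly every C1q cell of the liver. Of the C1q cells within the microglial limit, 100%, 96.3% and 100% were members in the 3 liver libraries (2 of 2, 26 of 27 and 7 of 7 cells), against 64.4% (116 of 180) and 49.2% (32 of 65) in brain and 32.6% (14 of 43) in subcutaneous replicate 1. Subcutaneous replicate 3 had 1 such cell, a member. The liver and brain libraries did not overlap, but the exact permutation test of brain against liver gave p = 0.1, its smallest possible value, and the test over sites gave p = 0.257. Of the liver replicate 2 members, 96.2% had no UMI of the 4 MHC class II genes of the rule, compared with 44.0% and 62.5% of the brain members and 21.4% of the members of subcutaneous replicate 1. These last values are description only, because the rule limited the same genes.

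Of the marker genes of the label, C1q was part of the rule and so bears on nothing, while Aif1 and Trem2 were not used by it and were present in each library with at least 2 members. C1qa was at 5400 and 6158 CPM in the summed brain members (6697 in brain replicate 1 without its deepest cell), 9649, 13310 and 7960 in the 3 liver libraries and 9858 in subcutaneous replicate 1, against 97.9 CPM in the tumour cells of brain replicate 1 and 1.84 and 2.45 in those of liver replicate 2 and subcutaneous replicate 1. Aif1, a cytoskeletal protein of macrophages known as IBA1, was at 1808 and 1957 CPM in brain, 1149, 880 and 714 in liver and 683 in subcutaneous replicate 1. Trem2, a lipid-sensing receptor that signals through Tyrobp, was at 1106 and 692 CPM in brain, 460, 278 and 275 in liver and 553 in subcutaneous replicate 1. Among these 6 libraries the brain members were the highest in Aif1 and Trem2 and the lowest in C1qa. Neither Aif1 nor Trem2 passed the edgeR test of brain against the other sites described below (adjusted p = 0.0953 and 0.225). Of the 15 pan-macrophage genes, 15 and 14 had a UMI in brain replicates 1 and 2, 13 in liver replicate 2 and 14 in subcutaneous replicate 1. In brain replicate 1, 114 of 116 members had at least 3 pan-macrophage UMIs, and so did every member of the other libraries.

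Ferritin, lipid-handling and lysosomal genes were among the highest in the members. Leaving aside ribosomal, mitochondrial and rule genes, the 5 highest by mean CPM were Tmsb4x, Ftl1, Apoe, Fth1 and Ctsb. Tyrobp, the adaptor shared by Trem2 and other activating receptors, was at 3995, 4521, 5054, 3148, 3897 and 3416 CPM in brain replicates 1 and 2, liver replicates 1 to 3 and subcutaneous replicate 1. Fcer1g, the signalling chain of Fc receptors, was at 2714, 3526, 3216, 3264, 2745 and 3807 CPM in the same order. Both were at similar levels across the 6 libraries, and neither passed the test of brain against the other sites (adjusted p = 0.668 and 0.761 by edgeR). Apoe, a lipid carrier, was at 11680 and 10220 CPM in brain, 17920, 24280 and 11640 in liver and 12300 in subcutaneous replicate 1, with liver replicate 2 the highest.

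Markers of most other cells were sparse. The exceptions included tumour genes, glial genes in brain and globin genes in liver replicate 2. They also included monocyte genes in liver replicates 2 and 3 and subcutaneous replicate 1. The endothelial genes of brain replicate 1 are given above. The 10 astrocyte or oligodendrocyte genes summed to 838 and 422 CPM in the brain members, with a UMI in 49.1% and 34.4% of them, and to 0, 92.6 and 0 CPM in liver replicates 1 to 3 and 0 in subcutaneous replicate 1. Mbp, a myelin protein, made up most of this, at 654 and 287 CPM in brain and 0 in the other libraries, against 184 and 121 CPM in the tumour cells of the brain libraries. Its difference between brain and the other sites did not pass the test (adjusted p = 0.122, edgeR), and the part of free RNA was not tested. Erythroid genes summed to 347 CPM in liver replicate 2, with a UMI in 42.3% of its members, and to 852 CPM in its tumour cells. They summed to 130 CPM in subcutaneous replicate 1 and to at most 3.24 CPM elsewhere. Of 10 T or NK cell genes on the feature list, 9 were at 0 in each brain library and in liver replicate 2, and all 10 in subcutaneous replicate 1. Hepatocyte genes summed to 6.47 and 16.9 CPM in the brain members, 0, 23.2 and 220 in the liver members and 0 in subcutaneous replicate 1. The neutrophil list summed to at most 77.6 CPM, in brain replicate 1 (44.2 CPM without its deepest cell), and the fibroblast and pericyte list to at most 32.5 CPM. The dendritic cell list summed to 184 and 186 CPM in brain, 0 in each liver library and 65.1 in subcutaneous replicate 1. A UMI of it was seen in 31.9% of the members of brain replicate 1. Tumour cells of the brain libraries had 317 and 283 CPM of that list. Of 12 monocyte genes, 7 to 11 were at 0 in each of the 6 libraries with at least 2 members, and Ccr2, the monocyte's chemokine receptor, had UMIs in 0% of brain and liver replicate 2 members and in 14.3% of those of subcutaneous replicate 1. The monocyte list still summed to 459 and 287 CPM in brain, 230, 718 and 2360 in liver replicates 1 to 3 and 1301 in subcutaneous replicate 1. Plac8 made up 1811 CPM of the sum in liver replicate 3. The tumour list (14 genes) summed to 485, 489, 1134 and 683 CPM in brain replicates 1 and 2, liver replicate 2 and subcutaneous replicate 1, against 11360 to 14390 CPM in the tumour cells of those libraries. A UMI of the tumour list was seen in 55.2% of the members of brain replicate 1.

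Microglial genes that the rule did not use were present in the brain members. At least 2 UMIs of microglial genes other than Cst3 were seen in 97 of 116 members of brain replicate 1 and 19 of 32 of brain replicate 2, against 6 of 26 in liver replicate 2, 3 of 14 in subcutaneous replicate 1 and 0 of 2 in liver replicate 1. Liver replicate 3, with 4 of 7, was near brain replicate 2. Olfml3, a secreted protein of microglia, was at 181 and 270 CPM in brain, with 0, 0 and 1 UMIs in liver replicates 1 to 3 and 0 in subcutaneous replicate 1. The microglial class held more of it, at 620 and 950 CPM in brain replicates 1 and 2. Not all genes of the list followed brain as Olfml3 did. Fcrls averaged 141 CPM in brain and was higher in subcutaneous replicate 1, at 423 CPM, with no UMI in liver replicate 2. Selplg averaged 123 CPM in brain and was at 116 CPM in liver replicate 2, with no UMI in subcutaneous replicate 1. What share of the brain members were shallowly sequenced microglia was not tested.

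Expression in the members was compared between brain and the other sites on UMIs summed per library, using the 4 libraries with at least 10 members (brain replicates 1 and 2, liver replicate 2 and subcutaneous replicate 1). Liver and subcutaneous tissue had 1 such library each and were not tested singly, so edgeR's quasi-likelihood test compared brain with the mean of the other sites. Of 1106 tested genes outside the rule, 32 (2.89%) passed an adjusted p of 0.05, with 14 (1.27%) higher and 18 (1.63%) lower in brain. The fit had 1 residual degree of freedom and a biological coefficient of variation of 30.8%, and the median log2 fold change of all genes was 0.10. That degree of freedom came from brain replicates 1 and 2 alone. No spread within liver or subcutaneous tissue therefore entered the p-values of this fit. Brain and other libraries did not overlap for 31 of the 32 genes, and neither did they for 41.8% of all tested genes. Leaving out members with at least 2 endothelial UMIs, the deepest cell among them, raised the count to 76, while requiring at least 10 UMIs in 2 libraries left 0 genes past the threshold, with 126 at an unadjusted p under 0.05; DESeq2 on the main gene set called 17.

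Fabp5, Cd52 and Ccl5 were among the genes that rose in brain. Fabp5, an intracellular fatty acid carrier (chr3:10012548-10016607, mm10), was at 4047 and 3948 CPM in the brain libraries (5018 in brain replicate 1 without its deepest cell), 301 in liver replicate 2 and 813 in subcutaneous replicate 1. Both brain libraries were above the other libraries of the fit, and the level rose by 2.97 ± 0.34 on the log2 scale (SE; adjusted p = 0.00266, edgeR). Tumour cells, which also express Fabp5, had 940 CPM in brain and 938 CPM elsewhere on average, and of the libraries outside the fit, liver replicates 1 and 3 had 230 and 165 CPM in their members. The single member of subcutaneous replicate 3, also outside the fit, had 14 Fabp5 UMIs (11440 CPM, exact Poisson interval 6253 to 19190), above both brain libraries. Cd52, a small surface glycoprotein, rose by 4.73 ± 0.52 on the log2 scale (adjusted p = 0.00266, edgeR). Cd52 was at 1191 and 979 CPM in brain and 23.2 and 65.1 CPM in liver replicate 2 and subcutaneous replicate 1, but at 494 CPM in liver replicate 3. Its call was lost when every library with at least 5 members entered, and its edgeR or DESeq2 adjusted p ranged from 5.79e-14 to 0.341 over the settings tried. Cd63, a tetraspanin of late endosomes, was at 1886 and 2176 CPM in brain, 92.6 in liver replicate 2 and 1334 in subcutaneous replicate 1. Its log2 fold change was 2.47 ± 0.37 (adjusted p = 0.0109, edgeR). The Cd63 call was lost without members holding other microglial UMIs, where the log2 fold change was 1.91. It was also lost without liver replicate 2 in a fit of libraries with at least 5 members (log2 fold change 1.41).

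Ccl5, a chemokine that draws T cells and monocytes (chr11:83525778-83530518, mm10), was at 1624 and 1164 CPM in the brain members, and no UMI was seen in the members of liver replicates 1, 2 and 3 or subcutaneous replicate 1. Against 3 UMIs over the summed members of liver replicate 2 and subcutaneous replicate 1 this was at least 34.4-fold higher (adjusted p = 0.00148, edgeR). It sat in a minority of the cells: 25.9% of the members of brain replicate 1 and 12.5% of brain replicate 2 had a UMI, against 8.40% and 0.714% of the deeper tumour cells of those libraries. The call did not survive leaving out the 5% of members with the most UMIs (adjusted p = 0.658 by edgeR) or the members with other microglial UMIs (0.973). The fitted log2 fold changes were then 9.77 and 8.91 against 10.26, values that depend on the fit's prior count, and its adjusted p ranged from 2.96e-19 to 0.973 over the settings tried. Cst7, an inhibitor of lysosomal cysteine proteases, was at 492 and 270 CPM in brain and at 0 in the same other libraries, at least 9.39-fold higher, and its call was lost under the same settings, with DESeq2 and with a minimum of 5 C1q UMIs (adjusted p from 5.43e-10 to 0.617 over the settings tried). Sparc, a matrix-binding glycoprotein shared by microglia and endothelium, was at 893 and 472 CPM in brain (410 in brain replicate 1 without its deepest cell) and 0 elsewhere, at least 16.8-fold higher with that cell and at least 10.9-fold without it.

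Lag3, an inhibitory receptor known from T cells and also made by microglia, was at 427 and 354 CPM in brain, 23.2 in liver replicate 2 and 0 in subcutaneous replicate 1. Syngr1, a vesicle membrane protein, was at 621 and 405 CPM in brain, 0 in liver replicate 2 and 228 in subcutaneous replicate 1. Both rose in brain, with edgeR adjusted p-values of 0.00734 and 0.0129, but neither passed with DESeq2 (adjusted p = 0.152 and 0.182). Cd9, another tetraspanin, was at 906 and 624 CPM in brain and 208 and 65.1 CPM in liver replicate 2 and subcutaneous replicate 1, and rose by 2.70 ± 0.46 (adjusted p = 0.0153, edgeR), though tumour cells of the brain libraries also had 617 and 734 CPM. Ctsd, the lysosomal protease cathepsin D, rose by 1.70 ± 0.29 (adjusted p = 0.0153, edgeR), with Ctsd at 9460 and 8654 CPM in brain and 4422 and 1659 CPM in liver replicate 2 and subcutaneous replicate 1. Among the 20 genes that met the naming rule, leaving out brain replicate 1 in a fit of libraries with at least 5 members ended 7 calls, among them Lag3 and Syngr1.

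**Figure D2:**
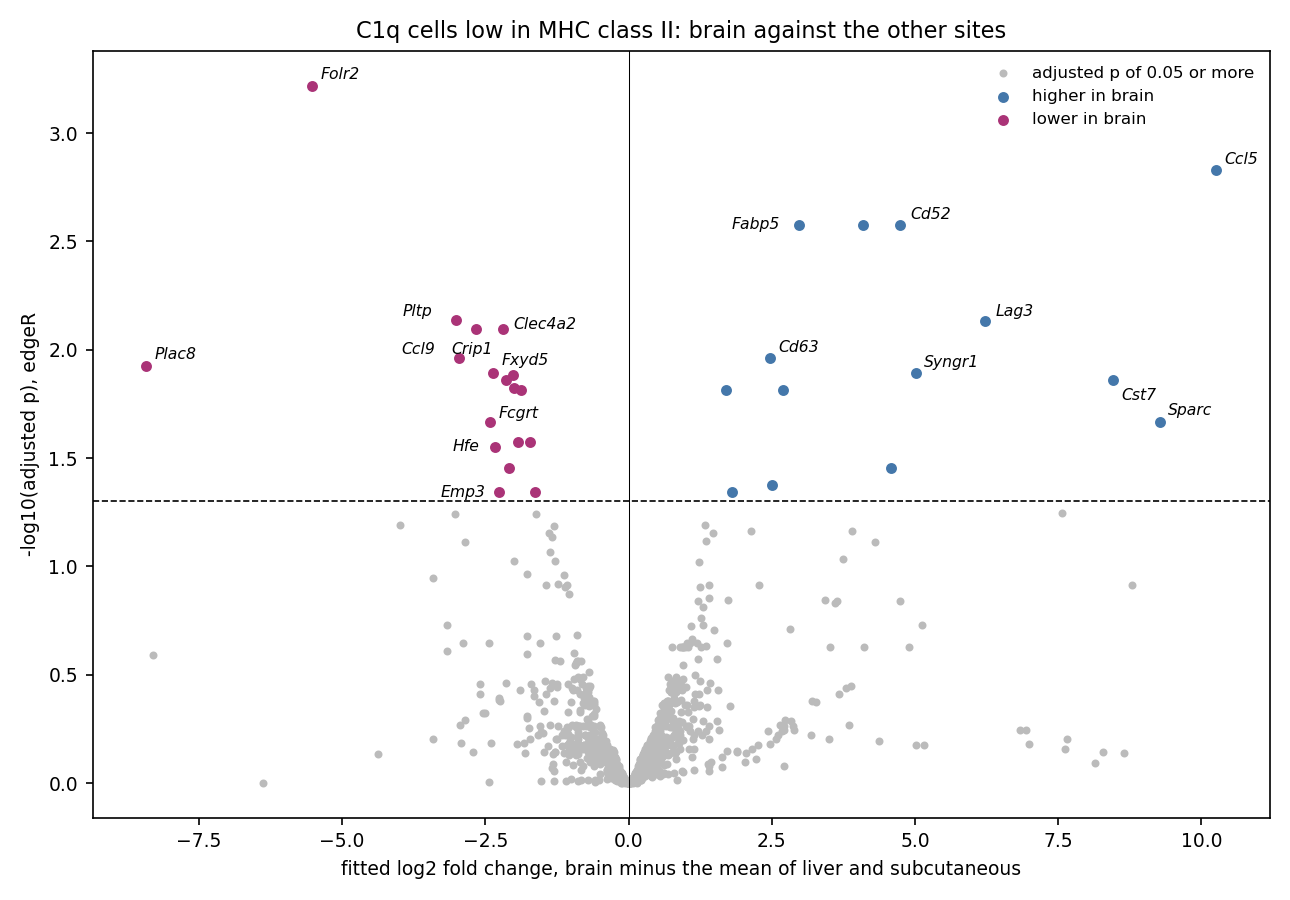
Fitted log2 fold change (brain minus the mean of liver and subcutaneous tissue) against -log10 of the edgeR adjusted p for the 1106 tested genes outside the rule. Each point is a gene, the dashed line is an adjusted p of 0.05 and 18 of the genes past it are labelled; 14 genes lie above the line on the brain side and 18 on the other, with Folr2 the most significant. Fold changes of genes with no UMI on one side, such as Ccl5 and Plac8, depend on the fit's prior count.

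Folr2, a folate receptor of resident and perivascular macrophages (chr7:101839988-101857194, mm10), was nearly missing from the brain members. It was at 19.4 and 33.7 CPM there (6 and 2 UMIs), 787 in liver replicate 2 and 1464 in subcutaneous replicate 1, and liver replicates 1 and 3 had 919 and 165 CPM. Brain members lay below every other library with at least 2 members, with a log2 fold change of -5.53 ± 0.43 (adjusted p = 0.000604, the smallest of the comparison, edgeR). Pltp, a phospholipid transfer protein, was at 239 and 152 CPM in brain (145 in brain replicate 1 without its deepest cell) and 1991 and 1334 CPM in liver replicate 2 and subcutaneous replicate 1, and fell by 3.00 ± 0.40 (adjusted p = 0.0073, edgeR). The chemokines Ccl9 and Ccl6 fell, with log2 fold changes of -2.96 ± 0.44 and -1.99 ± 0.34 (adjusted p = 0.0109 and 0.0151, edgeR). The call of Ccl9 was lost with DESeq2 (adjusted p = 0.152). Ccl9 was at 45.3 and 84.4 CPM in brain, 139 in liver replicate 2 and 1301 in subcutaneous replicate 1, while the 2 members of liver replicate 1 had no UMI of it.

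Plac8, a small cytoplasmic protein abundant in inflammatory monocytes, had no UMI in any brain member, and was at 324 CPM in liver replicate 2 and 456 CPM in subcutaneous replicate 1. That is at least 39.8-fold and 55.9-fold above 3 UMIs over the summed brain members (edgeR adjusted p = 0.0119). The call was lost when every library with at least 5 members entered, with adjusted p from 1.38e-11 to 0.514 by edgeR or DESeq2 over the settings tried, although liver replicate 3 was higher still at 1811 CPM. Tumour cells averaged 8.80 CPM of Plac8 in brain, and the C1q cells high in MHC class II of the same brain libraries had 1559 and 793 CPM. Crip1, a LIM domain protein, Clec4a2, an inhibitory lectin receptor, and Fcgrt, the recycling receptor for antibodies and albumin, had log2 fold changes of -2.66 ± 0.37, -2.19 ± 0.31 and -2.42 ± 0.43 (adjusted p from 0.00799 to 0.0215, edgeR). With DESeq2 the calls of Clec4a2 and Fcgrt were lost (adjusted p = 0.266 and 0.0983). Those of Crip1 and Fcgrt were lost in a fit of libraries with at least 5 members without subcutaneous replicate 1 (adjusted p = 0.0923 and 0.152, edgeR). Fxyd5, Hfe, an iron-sensing partner of the transferrin receptor, and Emp3 also fell, with log2 fold changes of -2.36, -2.34 and -2.26 (adjusted p = 0.0129, 0.0281 and 0.0456, edgeR). All 3 calls were lost with DESeq2 (adjusted p = 0.244, 0.689 and 0.770), and those of Hfe and Emp3 also without brain replicate 1, without liver replicate 2 and without members holding other microglial UMIs. Over the settings tried the adjusted p ranged from 2.04e-05 to 0.244 for Fxyd5, 5.83e-05 to 0.689 for Hfe and 0.00214 to 0.909 for Emp3 by edgeR or DESeq2. Emp3 in liver replicate 3, at 110 CPM, lay between the brain libraries at 64.7 and 152 CPM. Ifi27l2a, an interferon-induced gene, was at 599 and 1063 CPM in brain, 1111 in liver replicate 2 and 10570 in subcutaneous replicate 1, and fell by 2.14 ± 0.35 (adjusted p = 0.0138, edgeR). Liver replicate 3, at 769 CPM, lay between the brain libraries, so the distance was mainly to subcutaneous replicate 1.

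The liver members carried the genes of Kupffer cells, the macrophages of liver sinusoids. Clec4f, a lectin receptor used to mark these cells in mice (chr6:83644542-83656187, mm10), was at 5743, 7917 and 3623 CPM in liver replicates 1, 2 and 3 (exact Poisson intervals 3717 to 8478, 7100 to 8802 and 2802 to 4609), with no UMI in the members of brain replicates 1 and 2 or subcutaneous replicate 1. The 3 liver libraries were thus alike in its presence although they held only 2, 26 and 7 members. Liver replicate 2 was at least 972-fold above 3 UMIs over the summed brain members, and 92.3% of its members had a Clec4f UMI, against 0.287% of its tumour cells. Cd5l, a secreted regulator of lipid handling (chr3:87357881-87371073, mm10), was at 8959, 8172 and 4776 CPM in liver, 42.1 and 50.6 in brain and 0 in subcutaneous replicate 1. Vsig4, a receptor for complement fragments, was at 2297, 4630 and 2580 CPM in liver, 0 and 118 in brain and 65.1 in subcutaneous replicate 1. Marco, a scavenger receptor, was at 7351, 2593 and 2690 CPM in liver, 3.24 and 33.7 in brain and 0 in subcutaneous replicate 1. For these genes no liver library overlapped any other.

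Genes of iron handling and complement were also high in liver members, with less separation. Slc40a1, the iron exporter ferroportin, was at 1838, 1366 and 549 CPM in liver, 294 and 962 in brain and 0 in subcutaneous replicate 1. Hmox1, which breaks down haem, was at 2297, 2107 and 1098 CPM in liver, 220 and 1097 in brain and 325 in subcutaneous replicate 1, while the single member of subcutaneous replicate 3 had 24 UMIs of it (19610 CPM, exact Poisson interval 12560 to 29170). Cfp, which stabilises the alternative complement convertase, was at 4595, 3264 and 1702 CPM in liver, 35.6 and 607 in brain and 813 in subcutaneous replicate 1. Brain replicate 2 reached or neared the lowest liver library in Slc40a1 and Hmox1, while brain replicate 1 did not. Apoc1, an apolipoprotein, was at 2523 CPM in liver replicate 2, 201 and 152 in brain and 32.5 in subcutaneous replicate 1. Between brain and liver replicate 2, 58 of 1106 genes (5.24%) were at least 4-fold apart on log2(CPM + 50), 28 higher in brain (2.53%) and 30 lower (2.71%), with no test. When liver replicate 3 entered with every library of at least 5 members, edgeR called 52 of 1024 genes between brain and liver (5.08%), 22 higher (2.15%) and 30 lower (2.93%) in brain. Spp1, the secreted phosphoprotein osteopontin, was among the 10 genes furthest above liver, at 1928 CPM in brain replicate 1 and 152 in brain replicate 2 against 0, and so depended on 1 library. Ccl12, a monocyte-attracting chemokine, was there too, at 408 and 844 CPM in brain, 0 in all 3 liver libraries and 748 in subcutaneous replicate 1.

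The members of subcutaneous replicate 1 were set apart by chemokines and by genes of perivascular macrophages. Ccl8, a chemokine for monocytes and T cells, was at 29220 CPM there (exact Poisson interval 27340 to 31190), against 84.1 and 945 in brain and 0, 23.2 and 0 in liver replicates 1, 2 and 3. It was found in 64.3% of those 14 members, also after thinning to 1000 UMIs, and in 2.29% of the tumour cells of the library. The C1q cells high in MHC class II of the same library had 729 CPM, so in that tumour its level was higher in the class low in MHC class II. The single member of subcutaneous replicate 3 had 7 Ccl8 UMIs among 1224. Ccl2 and Ccl7, which draw monocytes through Ccr2, were at 2408 and 2050 CPM in subcutaneous replicate 1, 12.9 and 22.7 CPM in brain replicate 1, 33.7 and 50.6 CPM in brain replicate 2, and 0 in every liver library. Ccl2, Ccl7, Ccl12 and Ccl8 lie near each other on chromosome 11 (chr11:82035571-82037453, chr11:82045712-82047525, chr11:82101845-82103400 and chr11:82115185-82116799, mm10, plus strand).

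Of 14 border-associated or perivascular macrophage genes, 12 had UMIs in subcutaneous replicate 1, and the list summed to 12560 CPM against 776 and 1940 in brain and 2757, 2176 and 1537 in liver. Cbr2, a carbonyl reductase, was at 1529 CPM, with 3.24 and 118 in brain and 0 in liver. F13a1, the coagulation factor subunit of resident macrophages, was at 1334 CPM, with 0 and 169 in brain and 0 in liver. Pf4, a platelet and macrophage chemokine, was at 3058 CPM, with 104 and 304 in brain and 689, 509 and 329 in liver, and Cd209f, a lectin of the DC-SIGN family, was at 2375 CPM, with 120 and 135 in brain and 230, 116 and 439 in liver. Among libraries with at least 2 members, brain replicate 2 was the nearest in Cbr2 and F13a1. Cxcl13, a B cell-attracting chemokine, was at 6670 CPM in subcutaneous replicate 1 and 1597 in liver replicate 2, and at 0 and 50.6 in brain. Between brain and subcutaneous replicate 1, 70 of 1106 genes (6.33%) were at least 4-fold apart, 32 higher (2.89%) and 38 lower (3.44%) in brain, and between liver replicate 2 and subcutaneous replicate 1, 113 genes (10.2%), 52 higher (4.7%) and 61 lower (5.52%) in liver. These 3 counts share libraries, and as subcutaneous tissue had 14 members in a single tumour, site and library cannot be told apart there.

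**Figure D3:**
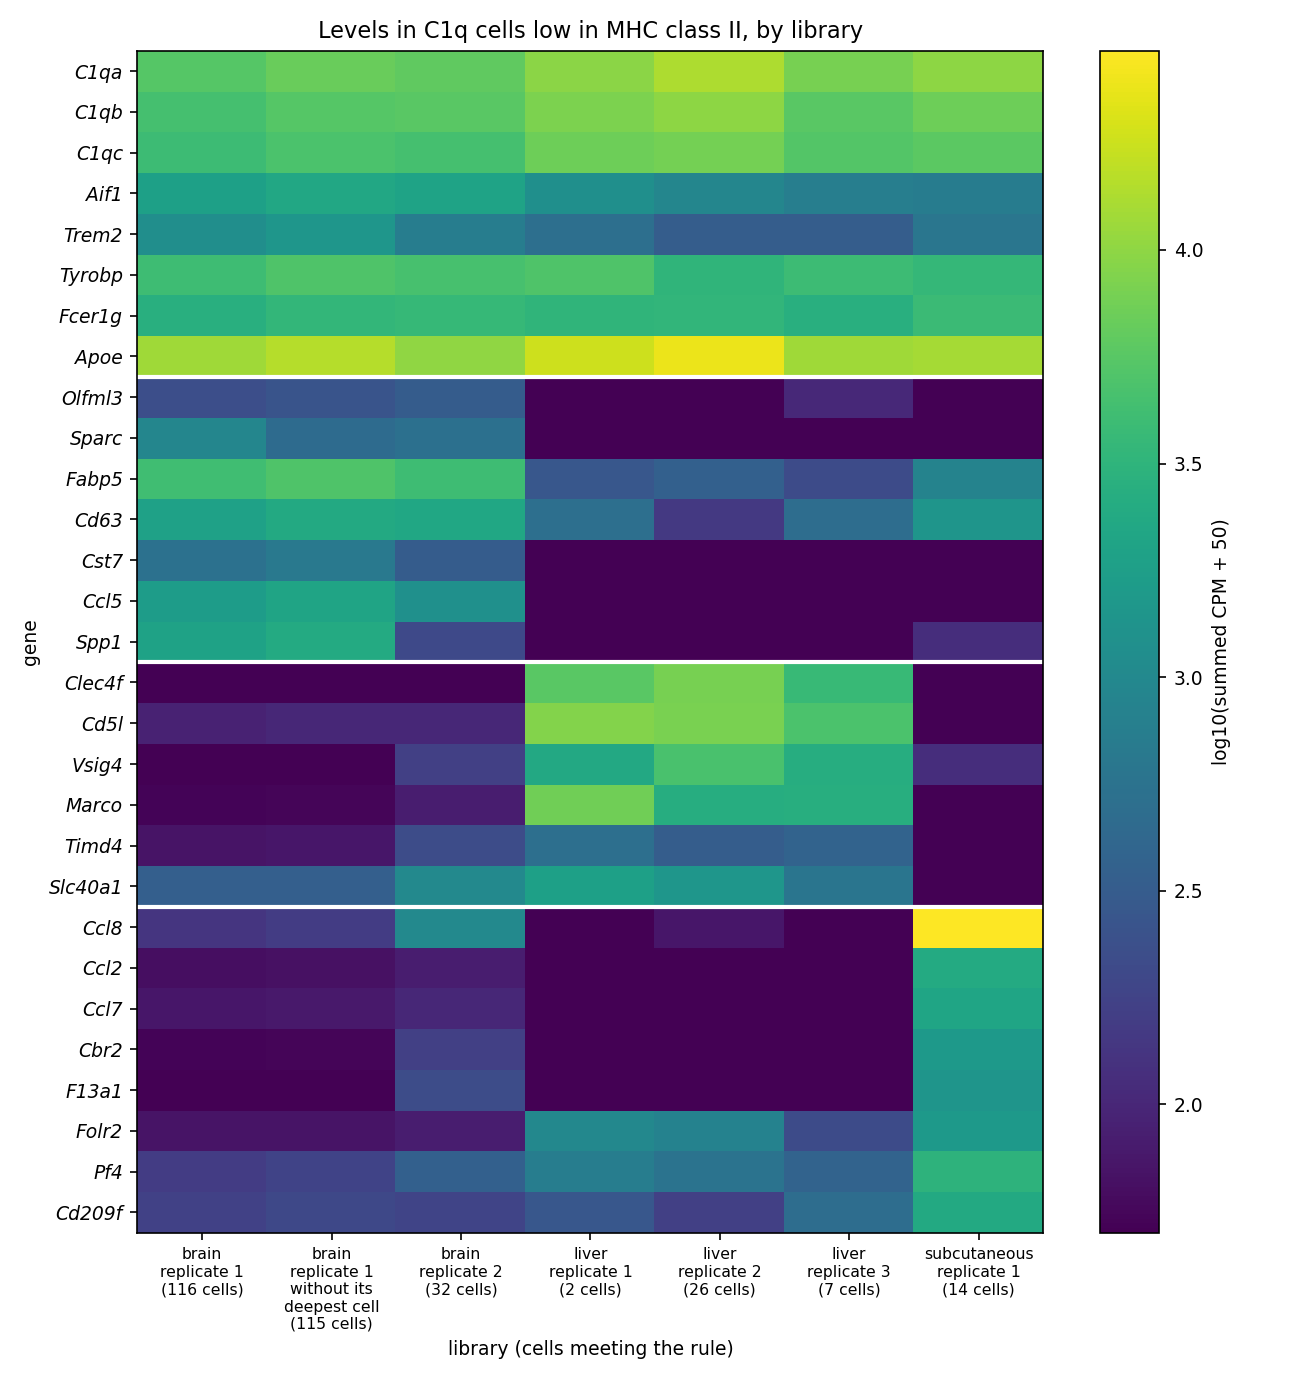
Levels of 29 genes, as log10 of summed CPM plus 50, in the C1q cells low in MHC class II of each library with at least 2 such cells, with brain replicate 1 also shown without its deepest cell. White lines separate shared macrophage genes, genes of the brain members, Kupffer cell genes and genes of subcutaneous replicate 1; Clec4f is at 0 outside the 3 liver libraries, Ccl5 at 0 outside brain, and Ccl8 reaches 29220 CPM in subcutaneous replicate 1.

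The stretches upstream of these site markers are shown next to those of the C1q genes, since Clec4f, Cd5l and Ccl8 differed widely between sites in cells that the rule chose for C1q at every site. RefSeq's table (GRCm38.p6) held C1qb, C1qc, Clec4f, Cd5l and Ccl8. Each is given here as the 250 bases before RefSeq's annotated start, 5′ to 3′ on the gene's strand. The gene positions given above are from GENCODE M21. RefSeq's start of Clec4f lies inside its GENCODE span (chr6:83644542-83656187), so part of that window overlaps the gene as GENCODE has it. Capitals mark GAGGAAG, an ETS-type motif bound by the macrophage factor PU.1, on either strand (CTTCCTC on the other strand).
C1qb, chr4:136886201-136886450, minus strand: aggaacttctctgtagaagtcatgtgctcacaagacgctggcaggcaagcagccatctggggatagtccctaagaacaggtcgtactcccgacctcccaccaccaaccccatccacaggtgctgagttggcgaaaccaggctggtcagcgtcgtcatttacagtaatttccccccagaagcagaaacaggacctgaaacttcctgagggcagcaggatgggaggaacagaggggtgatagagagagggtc
C1qc, chr4:136892915-136893164, minus strand: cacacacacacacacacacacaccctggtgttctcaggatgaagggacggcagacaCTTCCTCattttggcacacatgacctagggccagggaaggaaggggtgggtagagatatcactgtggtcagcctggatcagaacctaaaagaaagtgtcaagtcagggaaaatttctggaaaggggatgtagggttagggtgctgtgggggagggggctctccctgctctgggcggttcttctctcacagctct
Clec4f, chr6:83656117-83656366, minus strand: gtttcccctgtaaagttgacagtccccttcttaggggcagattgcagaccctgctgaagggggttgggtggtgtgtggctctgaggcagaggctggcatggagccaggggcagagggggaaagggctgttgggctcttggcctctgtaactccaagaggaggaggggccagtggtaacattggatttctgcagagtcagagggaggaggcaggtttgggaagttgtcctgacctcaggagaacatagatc
Cd5l, chr3:87357631-87357880, plus strand: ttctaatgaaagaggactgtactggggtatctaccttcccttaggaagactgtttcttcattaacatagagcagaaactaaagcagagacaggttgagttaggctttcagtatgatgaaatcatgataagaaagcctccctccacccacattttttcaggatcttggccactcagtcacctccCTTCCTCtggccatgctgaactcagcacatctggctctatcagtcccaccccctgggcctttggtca
Ccl8, chr11:82114935-82115184, plus strand: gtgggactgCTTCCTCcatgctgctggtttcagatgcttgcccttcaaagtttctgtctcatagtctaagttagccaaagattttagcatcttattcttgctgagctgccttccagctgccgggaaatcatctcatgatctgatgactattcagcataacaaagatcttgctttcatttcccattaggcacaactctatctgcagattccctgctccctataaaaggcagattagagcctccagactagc

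The motif was found once each in C1qc, Cd5l and Ccl8, ending at positions -188, -61 and -235 from the start, and not in C1qb or Clec4f. Of 32851 promoter windows of the same length, 10.6% held it. TGCTGAC, a MAF half-site (3.81% of windows), and the interferon response type motif (2.98%) were found in none of the 5. These matches describe letters only.

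The brain libraries also differed from each other. On log2(CPM + 50), 27 of 1106 genes (2.44%) were at least 4-fold apart, 17 higher in brain replicate 1 (1.54%) and 10 higher in brain replicate 2 (0.904%), with no test. Of the 10 furthest above brain replicate 2, only Spp1 kept a high level without the deepest cell (2394 CPM), while Cldn5, Igfbp7, Pglyrp1, Ly6c1 and Slc38a5 were then at most at 4.02 CPM. Brain replicate 2 was higher in Wfdc17, a secreted macrophage protein, at 3762 CPM against 644, in Ccl8 (945 against 84.1), in Cfp (607 against 35.6) and in Hmox1 (1097 against 220). Saa3, an acute phase protein of macrophages, was at 793 CPM in brain replicate 2 and had no UMI in any member of brain replicate 1. Mrc1, the mannose receptor, was seen in 21.9% of the members of brain replicate 2 and in 3.45% of brain replicate 1, and Timd4, a receptor for phosphatidylserine, in 15.6% and 3.45%. At 1000 UMIs per cell these shares were 11.5% and 1.83% for Mrc1 and 7.69% and 1.83% for Timd4. The tumour cells of brain replicates 1 and 2 had a Mrc1 UMI in 0.331% and 0.320%.

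The pathway lists were read against the 1106 tested genes, where the share rising in brain was 1.27% and the share falling 1.63%, with a median log2 fold change of 0.10. Of 20 tested lysosomal genes, 3 rose, Ctsd and Cd63 among them, and none fell, with a list median of -0.08. Of 14 tested lipid-associated macrophage genes, Cd9, Fabp5, Cd63 and Cst7 rose and none fell, and the list median was 0.76. Of 14 tested chemokines and receptors, Ccl5 rose and Ccl6 and Ccl9 fell (median -0.25). Of 7 tested genes of alternative activation, Folr2 fell (median -1.03), and of 6 tested interferon genes, Ifi27l2a fell (median -0.93). Of 5 tested microglial genes outside the rule, 2 rose, Sparc among them, and none fell. Of 10 tested border-associated genes, Cd209f and Folr2 fell (median -1.14). No tested gene passed among 5 of complement, 9 of apoptotic cell uptake, 9 of Fc receptors and adaptors, 10 of iron handling, 4 of inflammatory cytokines, 8 of MHC class I presentation, 12 transcription factors, 8 of hypoxia and glycolysis, 9 immediate early genes, 2 of the cell cycle or 3 of growth factor signalling. None of the 9 tested Kupffer cell genes passed either, in a contrast whose reference averaged liver replicate 2 with subcutaneous replicate 1. The lists hold more genes than could be tested, and members that passed the filter on low counts had to be seen in some library.

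Across iron and clearance genes the levels were broad. Ftl1, the ferritin light chain, was at 17670 and 30640 CPM in brain, 22280, 19860 and 15860 in liver and 21570 in subcutaneous replicate 1, and Axl, a receptor for coated dying cells, was at 194 and 287 CPM in brain, 919, 556 and 494 in liver and 65.1 in subcutaneous replicate 1. Ctsb, the protease cathepsin B, was at 6305 and 7170 CPM in brain, 17230, 12290 and 7081 in liver and 4978 in subcutaneous replicate 1. Lgmn, the endosomal protease legumain, was at 2148 and 3003 CPM in brain, 7811, 5440 and 3897 in liver and 2245 in subcutaneous replicate 1. In Axl and Lgmn each liver library was above the other 3, and none of these 4 genes passed the test of brain against the mean of the other sites (adjusted p from 0.538 to 0.951, edgeR). Il1b, an inflammatory cytokine, was at 93.8 and 101 CPM in brain, 0, 116 and 439 in liver and 0 in subcutaneous replicate 1.

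Set against the other C1q cells of their own libraries, the members had less of the immediate early genes and more Fabp5. This comparison is a description, because the rule split the cells by their own counts, and the classes differed in depth as given above. Against C1q cells with at least 10 MHC class II UMIs, in brain replicates 1 and 2 and subcutaneous replicate 1, 4 of 2835 genes at 50 CPM or more were at least 2-fold higher on log2(CPM + 50) in the members in every library, and 35 at least 2-fold lower. Syngr1 was at 621, 405 and 228 CPM in the members and 124, 45.3 and 18.9 in the class high in MHC class II. Timp2, an inhibitor of matrix metalloproteases, was at 1116, 844 and 1594 CPM against 379, 355 and 421. Just short of that fold, Trem2 was at 1106, 692 and 553 CPM against 353, 287 and 270. Lower in the members were Rgs1, a regulator of G protein signalling, at 285, 253 and 0 CPM against 1834, 2212 and 641, and Cxcl2, a neutrophil-attracting chemokine, at 55.0, 0 and 260 against 1824, 325 and 1169. H2-DMa and H2-DMb1, which load peptides on MHC class II and were not in the rule, were at 71.2, 118 and 130 CPM and 104, 84.4 and 0 CPM against 726, 596 and 817 and 883, 498 and 911.

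Against C1q cells with more than 2 microglial UMIs, in brain replicates 1 and 2, 39 of 3063 genes were at least 2-fold higher in the members in both libraries and 168 at least 2-fold lower. Fabp5 was at 4047 and 3948 CPM in the members and 806 and 329 in the microglial class, below the 926 CPM of the tumour cells of brain replicate 1. Lgals3, a galectin of activated macrophages, was at 1640 and 2311 CPM against 315 and 250, and Lgals1 was at 809 and 979 against 174 and 130. Wfdc17 was at 644 and 3762 CPM against 78.1 and 216. Gpnmb, a glycoprotein of lipid-laden macrophages, was at 243 and 135 CPM against 33.7 and 4.91. Csf1r, the receptor that macrophages need to survive, was lower in the members, at 437 and 489 CPM against 2453 and 2832, as was Selplg, a selectin ligand, at 93.8 and 152 against 954 and 1230. Fos, an immediate early transcription factor, was at 592 and 101 CPM against 4947 and 2074 (374 in the members of brain replicate 1 without the deepest cell), and Btg2, which restrains cell division, at 77.6 (24.1 without that cell) and 16.9 against 1076 and 898. The 15 immediate early and stress genes, which dissociation can raise, summed to 4215 and 844 CPM in the brain members (1732 in brain replicate 1 without the deepest cell), 11600 and 5525 in the class high in MHC class II and 18390 and 9991 in the microglial class. The tumour cells of the same libraries had 4658 and 3567 CPM. The part of handling in these values was not tested.

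**Figure D4:**
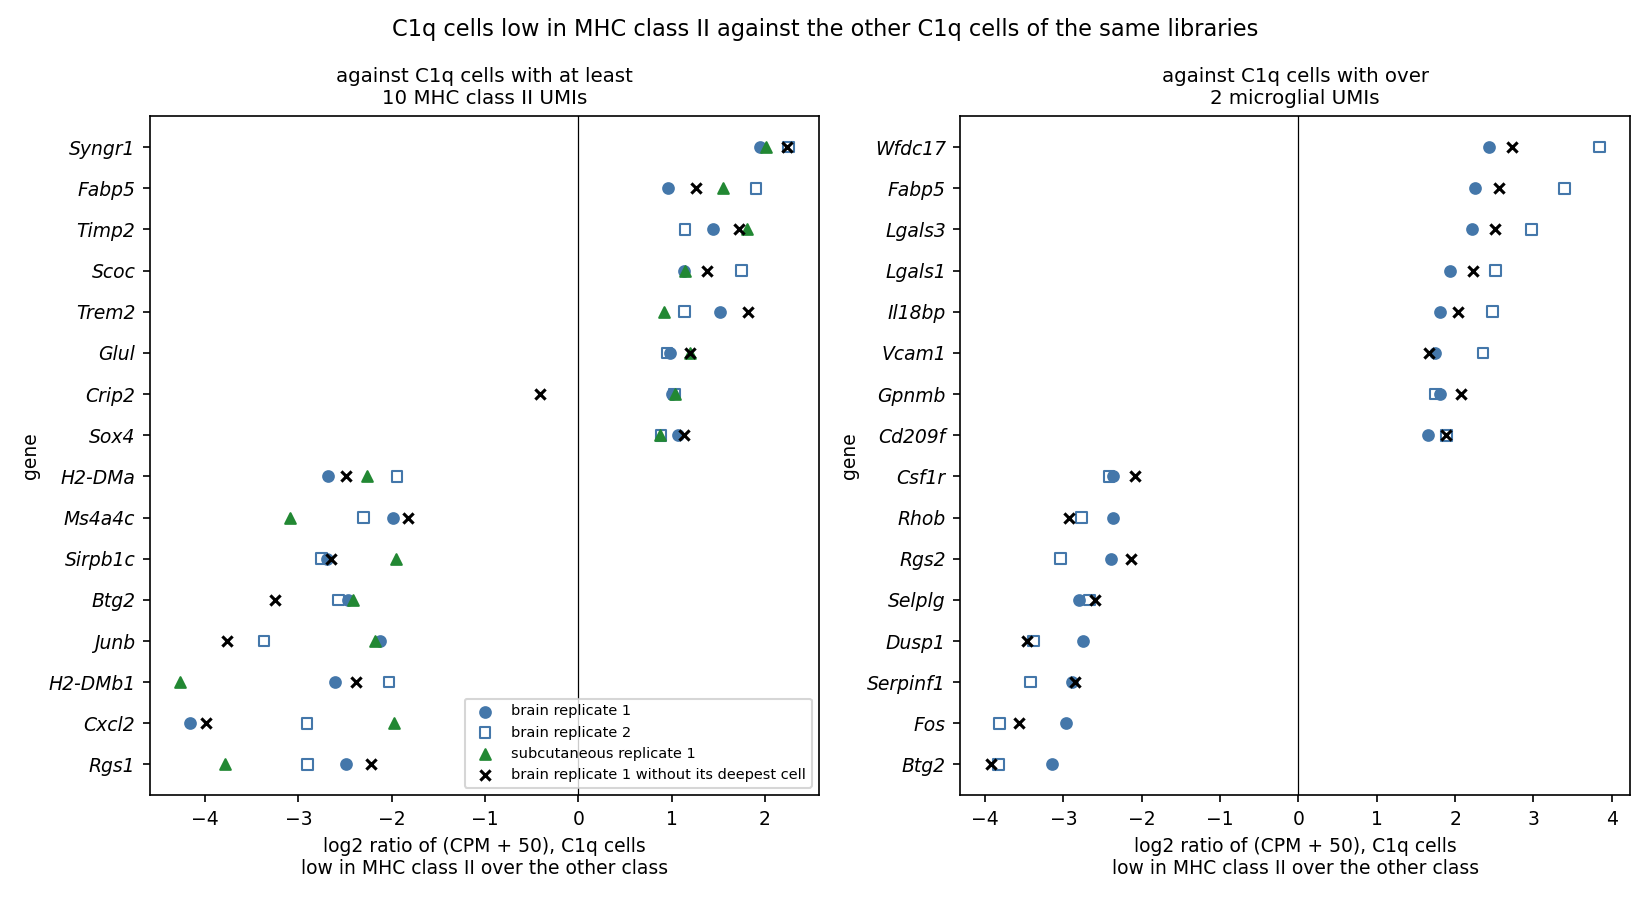
Log2 ratio of CPM plus 50 between the C1q cells low in MHC class II and the other C1q cells of the same library, for the 8 genes furthest apart in each direction. Circles, squares and triangles are brain replicate 1, brain replicate 2 and subcutaneous replicate 1, and crosses are brain replicate 1 without its deepest cell; Crip2 changes side without that cell, at 32.1 CPM in the members against 58.8 in the class high in MHC class II.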

How the data were processed

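Single-cell 3′ libraries of 8 mouse tumours were analysed. The deposited values are UMI counts per gene and cell, made by the authors with Cell Ranger and STAR on mm10, per the submitters' processing notes, with the format version 3.0.0 per the file headers; Cell Ranger and STAR versions are not given in the sources used here. Kept cells had 500 or more genes and no more than 10% mitochondrial UMIs. No doublet caller was run, and no doublets were removed. The members and the gene lists were chosen with earlier results of these data known. Samples were grouped by the labelled site. Counts of members were summed per library and tested with edgeR 4.0.16 (R 4.3.3; TMM scaling, low-count filter, robust quasi-likelihood, Benjamini-Hochberg adjustment) over libraries with at least 10 members, with 1 mean per site. DESeq2 1.42.0 was an alternative. Levels are CPM of the summed counts, and folds without a test use log2(CPM + 50). Shares were compared by two-sided exact permutation over libraries, with exact (Clopper-Pearson) binomial and exact Poisson 95% intervals. A level of 0 was set against 3 UMIs over the group. Deposited depth ran from 27140735 to 63049542 UMIs per library.

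Named genes were the 10 with the largest fold change per direction among those past an adjusted p of 0.05 whose libraries did not overlap and whose level was at least 2 times that of tumour cells, the 10 furthest apart per direction in each untested comparison, the 20 highest levels, and the 8 furthest apart per direction for each class of C1q cells. All were at 50 CPM or more in the higher group. Genes of the lists could also be named, and which of them are shown was chosen after their values were seen. On simulated counts the test made 0 calls with no change. It recovered 58.4% of 4-fold and 90.2% of 8-fold changes, with 1 and 5 false calls. Unlike the data, the simulation gave all genes a single spread and liver and subcutaneous tissue equal means. It therefore cannot measure false calls in the real comparison. Of 22056 genes, 21952 had a position in GENCODE M21. The alternatives concerned the limits of the rule, the filter, the scaling, the tool, the added constant, thinning and the libraries used. The values of 1 gene are not reported here.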

Additional observations from a re-analysis of the deposited data

Results flagged for a closer look

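The members of liver replicates 1 and 3 were too few for the fit between sites, yet carried Kupffer cell transcripts. The 2 members of liver replicate 1 held 25 UMIs of Clec4f, 39 of Cd5l, 32 of Marco and 10 of Vsig4. The 7 members of liver replicate 3 held 66 UMIs of Clec4f, 87 of Cd5l, 49 of Marco and 47 of Vsig4. In the tumour cells of these libraries a Clec4f UMI was seen in 0.0729% and 0.0424% of cells.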

How the results depend on the processing

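The brain excess in the share of kept cells (1.89 percentage points over the mean of the other sites) was 0.753 points with no microglial UMI allowed (exact permutation p = 0.0893) and 0.289 points without members holding at least 2 UMIs of other microglial genes (p = 0.229), and 0.587 points at 1000 genes (p = 0.0107); leaving out each library gave 0.538 to 3.25. The permutation p-values of these alternatives were not adjusted for the number of tests. Among host cells the difference of 4.97 points turned to -1.28 without those microglial members and ranged from 3.48 to 6.61 with each library left out. With the rule applied anew at 2000 UMIs per cell it was 5.33 (exact permutation p = 0.0143). Among C1q cells it went from -25.7 to -11.8 points with no microglial UMI allowed (exact permutation p = 0.0167) and to -52.3 without the microglial members, and ranged from -42.6 to -8.82 by library. Shares of C1q cells and their tests are description only, as the rule's MHC class II limit sets them. Pairwise, brain minus liver among host cells (1.69 points) was -2.74 with no microglial UMI allowed, -3.48 at a tumour limit of 0.1%, -1.52 at 1000 genes, -0.294 at 5% mitochondrial UMIs, -3.41 without the microglial members and -1.01 to 4.97 by library, but 4.67 at 2000 UMIs per cell and 6.12 at a microglial limit of 5. Brain minus subcutaneous tissue among C1q cells (-9.44 points) was 21.9 with no microglial UMI allowed and also at 1000 genes, and -43.2 to 24.3 by library. Liver minus subcutaneous tissue ranged by library from -0.0157 to 0.259 points of kept cells and from -1.24 to 66.2 points of C1q cells. The 32 genes past the edgeR threshold became 17 with DESeq2, 77 with no filter, 0 with at least 10 UMIs in 2 libraries (126 at an unadjusted p under 0.05), 54 at 5 C1q UMIs and 52 at an MHC class II limit of 5. They became 86 without the 5% deepest members, 76 without members with endothelial UMIs and 19 without the microglial members. Over libraries with at least 5 members the count was 40, and 25 to 68 with each left out, 68 being without brain replicate 2. No named gene changed direction in the fits tried. Without a test, the 4-fold counts were 94 for brain against liver with no eGFP or Mycl UMI. With 20 and 100 CPM added they were 90 and 31 for brain against liver and 106 and 44 for brain against subcutaneous tissue, and 58 for liver against subcutaneous tissue with 100 CPM added. The cause of these changes was not tested. No paired analysis was possible because site and replicate number together left 0 residual degrees of freedom over 4 libraries. The fit could not be made with at least 20 members per library, with no microglial, eGFP or Mycl UMI, or at 1000 genes. It also could not be made without members holding at least 2 cell cycle UMIs, or at 2000 UMIs per cell. The same held without any of its 4 libraries at the minimum of 10 members. Of fits of only the sites compared, that of brain and liver libraries with at least 5 members called 30 genes, and others were not run. Few and shallow members outside brain limit what can be detected.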
